A study of Mus musculus with 3 samples.

Results

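The genes described here are 60 mouse genes of mitosis, the spindle and the kinetochore, listed by name and placed in 9 role groups from mitotic kinases to chromosome structure. They were read in endothelial cells of the embryonic kidney. A gene counted as measured when the array held a probe set (a set of probes summarized to a single value) annotated with that gene's symbol and no other. This held for 59 of the 60 genes, with 61 probe sets, out of 19938 named genes and 35557 probe sets on the array. Cyclin B1 (Ccnb1) had no such probe set and was not analysed here.

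The cells came from E15.5 embryos (15.5 days post coitum) of CD-1 mice carrying the transgene Tg(TIE2GFP)287Sato, in which green fluorescent protein is driven by the promoter of Tek (Tie2), an angiopoietin receptor gene. Kidneys were dissociated with trypsin and fluorescent cells were sorted, 4 to 5 kidneys being pooled for each of the 3 samples, and the RNA of each pool was amplified in 1 round and hybridized to a Mouse Gene 1.0 ST array. All 3 arrays belong to a single group, without a control, an adult or an unsorted sample among the values used here. The Tek promoter is also known to be active in some cells of the blood lineage. Nothing in the labels tells if separate litters were used, so SDs and p-values cover no more than the spread among the 3 arrays, and in pooled RNA of this kind fewer cells in division and less message per dividing cell cannot be told apart.

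Mitosis is started by the kinase CDK1 bound to cyclin B, and it is carried out by a microtubule spindle that attaches to chromosomes at the kinetochore, a protein assembly built on the centromere. The spindle checkpoint holds back the anaphase-promoting complex, a ubiquitin ligase, until every kinetochore is attached. The complex then marks securin and the cyclins for destruction, the sister chromatids part, and the central spindle directs the cut between the daughter cells. Many of these genes are transcribed together late in the cell cycle, and in a growing organ such as the fetal kidney new vessels form partly through division of endothelial cells.

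Nearly all of the mitosis genes were above a level of 100, the number that the study used as its filter for low signal on the raw scale. It is 6.64 on the log2 scale of the table, whose processing may differ from that of the study's own analysis. Each mean was tested against this level with limma, and p-values were adjusted by Benjamini-Hochberg across the whole table with a threshold of 0.05. By this test 54 of 59 genes were above the level, 0 were below it and 5 were on neither side. The background over all 19938 named genes was 41.6% above, 41.6% below and 16.8% on neither side. The 5 genes on neither side were Cenpi, Trip13, Kif18a, Prc1 and Ect2, and all had a mean over the level. At least 1 probe set read 100 or more on all 3 arrays for 57 of the 59 genes, against 47.9% of all named genes. The exceptions were Cenpi and Ect2. Kif14 counted through 1 of its 2 probe sets, since their mean was under the level in arrays 1 and 2 (6.60 and 6.55 log2). With array 1, 2 or 3 left out, the number above the level was 32, 24 or 41 (background 27.7%, 25.3% and 40.2%), and with a level of 200 it was 33, with 4 below (background 16.2% and 66.6%). The median over the mitosis genes of the mean log2 value was 9.01, against 6.67 over all named genes, and the median of their percentiles among named genes was 90.4.

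The spread between the arrays differed with the level of the genes. The median SD was 0.36 log2 over the mitosis genes, 0.12 over all named genes and 0.10 over the 8295 named genes above the level. The 8295 were selected by a test in which a wide spread counts against a gene, and 2172 of them read the same on all 3 arrays. Among genes of like mean the median SD was 0.39 for the mitosis genes against 0.25 for all named genes at 8 to 9 log2. It was 0.40 against 0.27 at 9 to 10, and 0.16 against 0.19 at 10 to 11. Over the 12 pan-endothelial markers it was 0.59. Medians of the mitosis genes were 9.39, 9.17 and 8.52 log2 in arrays 1, 2 and 3, while the medians of all probe sets were 6.50, 6.51 and 6.55. Array 3 thus gave the low values, and it is compared with the other arrays after the single genes. Probe sets differ in how strongly they hybridize, so the level of a gene is compared below with the level of 100 and between arrays, never with the level of another gene. Where a mean is given with ±, the second number is the SD over the 3 arrays.

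**Figure D1:**
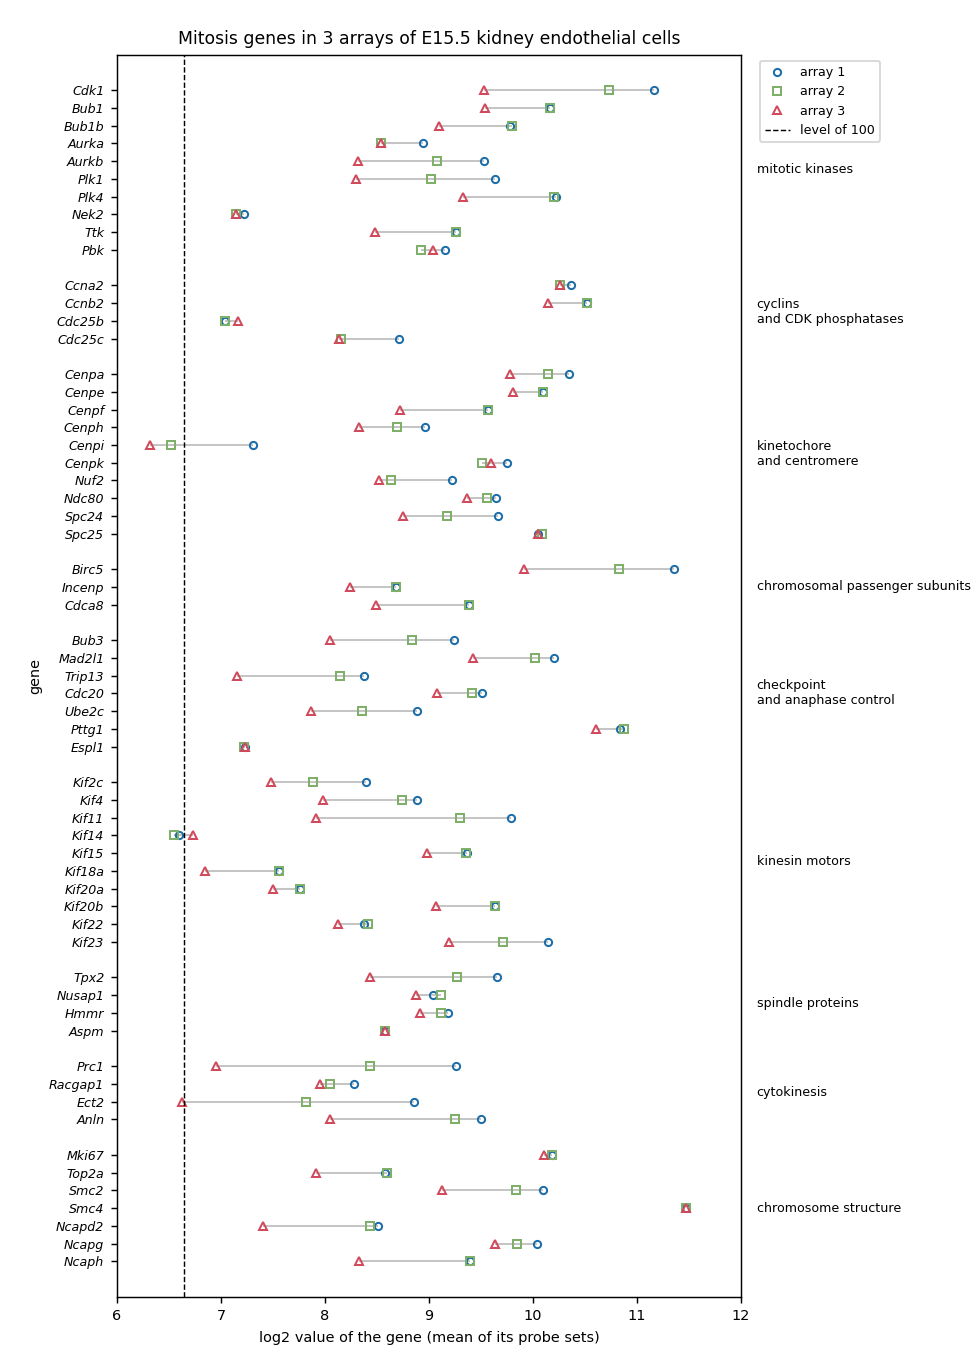
Log2 value of each of the 59 measured mitosis genes (horizontal axis, mean of the gene's probe sets) in arrays 1, 2 and 3, by role group, with the level of 100 as a dashed line and a grey line over each gene's range. Red triangles (array 3) lie to the left for most genes, with the widest gaps for Prc1, Ect2, Kif11, Cdk1 and Anln.

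Promoter sequence was looked at because genes of mitosis are known to share promoter elements, among them the cell cycle genes homology region (CHR, with the letters TTTGAA), which is bound by the DREAM and MuvB complexes, and the CCAAT box, bound by NF-Y. RefSeq promoter windows of build GRCm38.p6, from 250 bases before to 50 bases after the transcript start, were present for 51 of the 60 genes. The 9 others were Smc4, Incenp, Ccna2, Pbk, Tpx2, Spc24, Cdc25c, Aurkb and Kif20a. Letters were searched on both strands, so that TTTGAA also covers TTCAAA and CCAAT also covers ATTGG, and 2 pairs of matches in the windows of these genes shared bases. TTTGAA was found in 34 of 51 mitosis genes, or 66.7%, and in 20.2% of the 27025 genes of the RefSeq table. CCAAT was found in 37 of 51, or 72.5%, against 41.1%, and both were found in 29 of 51, or 56.9%, against 7.97%. A match is a description of letters and not of a bound site.

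The 100 bases before the start are printed for 7 genes because they show both arrangements. Cdk1, Cdc20, Ube2c, Kif11, Top2a and Prc1 hold both letter strings, and Mad2l1 holds neither. Capitals mark TTTGAA or TTCAAA and CCAAT or ATTGG, and each stretch is written in the direction of transcription and ends at the base before the start. The stretches lie at chr10:69352913-69353012 (Cdk1, minus strand), chr4:118437344-118437443 (Cdc20, minus strand), chr2:164769829-164769928 (Ube2c, plus strand), chr19:37376282-37376381 (Kif11, plus strand), chr11:99024190-99024289 (Top2a, minus strand), chr7:80294376-80294475 (Prc1, plus strand) and chr6:66535121-66535220 (Mad2l1, plus strand).
Cdk1: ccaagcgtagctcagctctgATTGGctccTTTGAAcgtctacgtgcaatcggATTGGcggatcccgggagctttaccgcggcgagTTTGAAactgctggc
Cdc20: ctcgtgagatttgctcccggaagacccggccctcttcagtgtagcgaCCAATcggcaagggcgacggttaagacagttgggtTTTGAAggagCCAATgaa
Ube2c: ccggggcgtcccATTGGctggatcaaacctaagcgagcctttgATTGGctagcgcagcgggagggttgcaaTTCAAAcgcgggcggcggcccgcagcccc
Kif11: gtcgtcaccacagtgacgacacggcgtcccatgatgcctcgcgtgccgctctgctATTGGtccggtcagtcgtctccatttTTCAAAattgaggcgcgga
Top2a: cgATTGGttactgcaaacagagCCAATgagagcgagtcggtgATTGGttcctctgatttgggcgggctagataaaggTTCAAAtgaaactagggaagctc
Prc1: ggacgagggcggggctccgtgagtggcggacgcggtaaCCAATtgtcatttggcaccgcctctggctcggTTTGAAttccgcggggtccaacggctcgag
Mad2l1: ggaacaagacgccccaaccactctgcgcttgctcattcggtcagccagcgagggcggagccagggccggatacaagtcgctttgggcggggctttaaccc

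The TTTGAA letters lay close to the start. In 30 of the 34 genes with a match, its first base was within 50 bases of the start, a limit chosen after the positions were seen, which is 58.8% of the 51 genes against 5.72% of all genes of the table. In the stretches above, the first base of the match is at -15 relative to the start in Cdk1, -18 in Cdc20, -29 in Ube2c, -19 in Kif11, -23 in Top2a and -30 in Prc1, and Cdk1 has a further one at -71. The related letters TTTAAA, which read the same on both strands, were found in 12 of 51 genes, or 23.5%, against 14.9%. Both E2F strings that were searched were rarer, with TTTGGCGC in 3 genes (5.88% against 0.585%) and TTTCCCGC in 1 gene (1.96% against 1.24%). None of the 5 strings was found in 6 of the 51 genes, or 11.8%, against 41% of all genes. The median GC content of the windows was 58.5% for the mitosis genes, 57.3% for the genes named on the array and 52.7% for all windows, and its part in the shares was not tested.

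**Figure D2:**
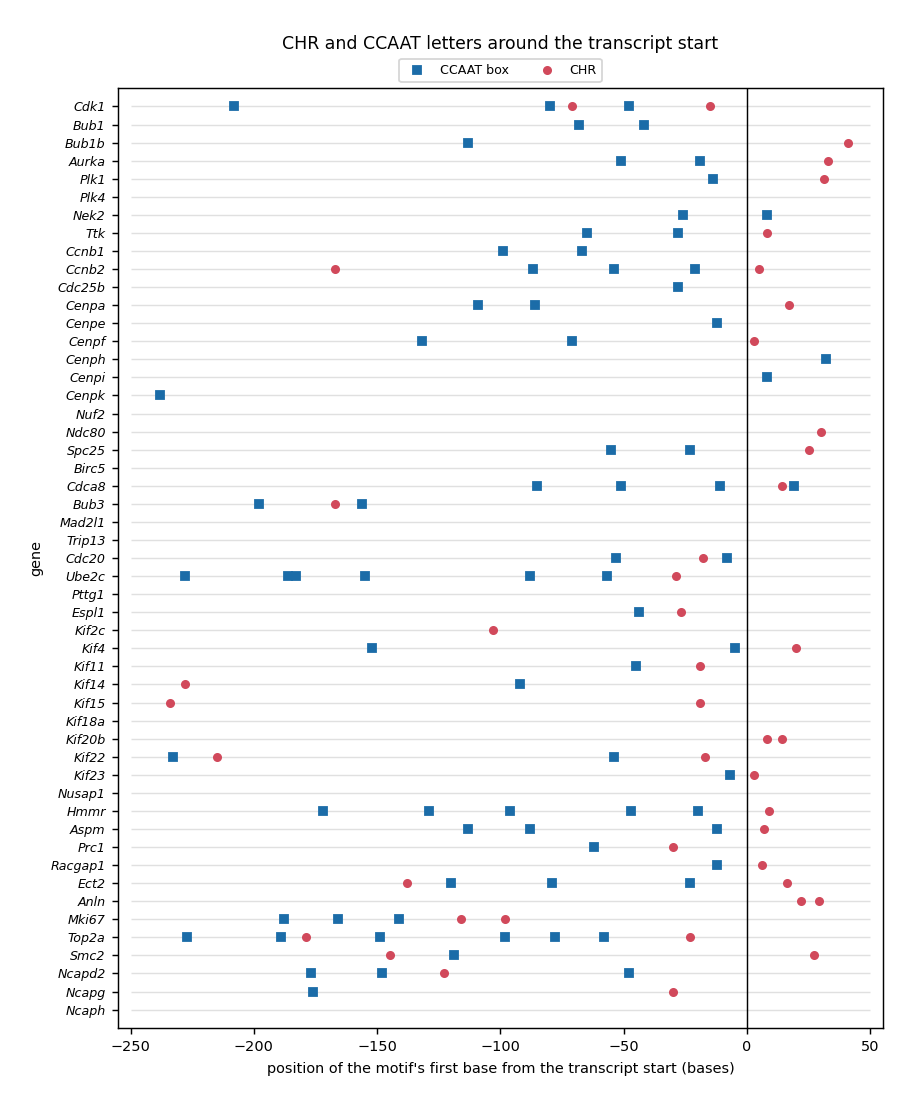
Position of the first base of each TTTGAA (CHR, red circles) and CCAAT (blue squares) match relative to the transcript start at 0, in bases, for the 51 mitosis genes with a RefSeq window. Most red circles lie within 50 bases of the start and most blue squares lie before it. For a gene with several windows the one with the downstream-most start is drawn.

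All 10 mitotic kinases were above the level. Cdk1, the kinase that drives entry into mitosis, read 11.16, 10.73 and 9.52 log2 in arrays 1, 2 and 3, a mean of 10.47 ± 0.85 (limma adjusted p = 0.0131). Array 3 was the low one, 2.68-fold under the mean of the other two, and still far over the level. Bub1, a checkpoint kinase that marks centromeric chromatin, read 10.16, 10.16 and 9.53. Bub1b, which helps to inhibit the anaphase-promoting complex, read 9.78, 9.80 and 9.09. In both, arrays 1 and 2 nearly coincided and array 3 differed from their mean by -0.63 and -0.70 log2. Aurka, the Aurora kinase of centrosomes and spindle poles, had another order, with 8.94 in array 1 and 8.54 in each of arrays 2 and 3.

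Nek2, a kinase of centrosome separation, was close to the level, at 7.22, 7.14 and 7.14. Its narrow range came with equal values in arrays 2 and 3. The other kinases had means of 8.98 ± 0.61 (Aurkb, the catalytic subunit of the chromosomal passenger complex), 8.98 ± 0.67 (Plk1, the polo-like kinase of spindle assembly), 9.91 ± 0.51 (Plk4, which starts centriole duplication), 9.003 ± 0.45 (Ttk, which recruits checkpoint proteins to kinetochores) and 9.04 ± 0.11 (Pbk, a kinase active in mitosis). Pbk was the exception among these 5, since array 3 did not lie under the mean of the others.

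The 4 measured cyclins and CDK phosphatases were above the level. Cyclin A2 (Ccna2), which acts from S phase into early mitosis, read 10.37, 10.26 and 10.26 log2 in arrays 1, 2 and 3. Cyclin B2 (Ccnb2), a partner of CDK1, read 10.52, 10.52 and 10.15. The lowest value was in array 3 for Ccnb2, while for Ccna2 arrays 2 and 3 coincided. Cdc25b and Cdc25c are phosphatases that remove the inhibitory phosphates from CDK1. Cdc25b read 7.04, 7.04 and 7.17, near the level and with array 3 highest, and Cdc25c read 8.72, 8.15 and 8.14, with array 1 highest.

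Of 10 kinetochore and centromere genes, 9 were above the level. Cenpa, the histone H3 variant that defines the centromere, read 10.35, 10.14 and 9.78 log2. Cenpe, a kinesin of the kinetochore, read 10.10, 10.10 and 9.81, and Cenpf, a large protein of the outer kinetochore, read 9.56, 9.56 and 8.73. Array 3 was the lowest in all of these, by the widest margin for Cenpf, which differed from the mean of the others by -0.84. Cenph, Cenpi and Cenpk belong to the inner kinetochore network that stays on the centromere. Cenph read 8.96, 8.70 and 8.33. Cenpi was the one member of the group on neither side of the level, with 7.31, 6.52 and 6.32 (6.72 ± 0.52, adjusted p = 0.8831 in the limma test for above), so that it was over the level on array 1 alone. Cenpk had a mean of 9.62 ± 0.12.

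The Ndc80 complex is the rod that binds kinetochores to microtubules, and all 4 of its subunits were above the level. Spc25 had a narrow range, at 10.05, 10.09 and 10.05 log2, with equal values in arrays 1 and 3. Nuf2 had a mean of 8.79 ± 0.38, Ndc80 one of 9.52 ± 0.15 and Spc24 one of 9.19 ± 0.46. The subunits differed in how array 3 compared with the mean of arrays 1 and 2, with differences from -0.66 for Spc24 to -0.02 for Spc25.

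The 3 subunits of the chromosomal passenger complex listed apart from its kinase were above the level. Birc5 (survivin), which brings the complex to centromeres, read 11.35, 10.83 and 9.91 log2. Incenp, its scaffold, read 8.68, 8.68 and 8.24, and Cdca8 (borealin) read 9.39, 9.39 and 8.49. Array 3 was the lowest in each, with differences of -1.18, -0.44 and -0.90 from the mean of arrays 1 and 2.

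Among the 7 genes of the spindle checkpoint and anaphase control, 6 were above the level. Bub3, which carries Bub1 and BubR1 to kinetochores, read 9.24, 8.83 and 8.04 log2, and Mad2l1 (MAD2), the protein that binds and blocks CDC20, read 10.20, 10.02 and 9.42. Trip13, the ATPase that remodels MAD2, read 8.37, 8.14 and 7.16 (7.89 ± 0.65) and was on neither side of the level (limma adjusted p = 0.0675). All its values were over the level, and the spread between the arrays was wide. Cdc20, the activator of the anaphase-promoting complex in mitosis, read 9.51, 9.41 and 9.08. Separase (Espl1), the protease that cleaves cohesin, read 7.23, 7.22 and 7.23. This was the narrowest range of the 7, with equal values in arrays 1 and 3. Ube2c, the ubiquitin-conjugating enzyme of the complex, had a mean of 8.37 ± 0.51, and securin (Pttg1), the inhibitor of separase, one of 10.77 ± 0.15.

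Of 10 kinesin motors, 9 were above the level. Kif2c (MCAK), which removes tubulin from microtubule ends, read 8.39, 7.88 and 7.48 log2, and Kif4, a motor on chromosome arms, read 8.88, 8.74 and 7.98. Kif11 (Eg5), the motor that pushes the spindle poles apart, read 9.79, 9.30 and 7.92 (SD 0.97, limma adjusted p = 0.0435). Array 3 was 3.08-fold under the mean of the other arrays for Kif11, the widest gap among the motors, and its adjusted p lay close to the threshold. Kif18a, which dampens chromosome movements at metaphase, read 7.56, 7.56 and 6.84 (7.32 ± 0.41) and was on neither side of the level (limma adjusted p = 0.0914).

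Kif14, a motor of cytokinesis, had 2 probe sets that lay on opposite sides of the level. One read 8.67, 8.60 and 8.43 log2 and was above it, and the other read 4.52, 4.50 and 5.03 and was below it (limma adjusted p = 0.0058 in the test for below). The gene was called above through the first, although the mean of both, 6.63 ± 0.09, was at the level, and the 2 probe sets disagreed on which array was highest. The other motors had means of 9.23 ± 0.22 (Kif15, which helps to hold the spindle bipolar), 7.68 ± 0.15 (Kif20a, of the central spindle), 9.45 ± 0.33 (Kif20b), 8.31 ± 0.15 (Kif22, a chromosome arm motor) and 9.68 ± 0.47 (Kif23, the motor subunit of centralspindlin). In these 5 array 3 was the lowest, with differences of -0.73 to -0.26 log2 from the mean of the others.

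The 4 other spindle proteins were above the level. Tpx2, which activates Aurora A on spindle microtubules, read 9.65, 9.27 and 8.43 log2. Nusap1, a microtubule-bundling protein, read 9.04, 9.12 and 8.88, and Hmmr, a protein of spindle poles, read 9.18, 9.12 and 8.92. Aspm, a spindle pole protein whose human counterpart is mutated in a form of microcephaly, read 8.58 on every array. Tpx2 was therefore the only one of the 4 with a gap of more than 1 log2 unit between array 3 and the mean of the others.

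Cytokinesis held the widest spread of any role group, and 2 of its 4 genes were above the level. Prc1, which bundles antiparallel microtubules of the central spindle, read 9.26, 8.43 and 6.95 log2 (8.21 ± 1.17, limma adjusted p = 0.1307). Ect2, the exchange factor that activates RhoA at the cleavage furrow, read 8.85, 7.81 and 6.62 (7.76 ± 1.11, limma adjusted p = 0.2103). Both were on neither side of the level, and Ect2 was just under it on array 3. Prc1 was 3.72-fold and Ect2 3.27-fold lower in array 3 than the mean of the other arrays. Anln (anillin), the scaffold of the contractile ring, read 9.50, 9.25 and 8.05 and was above the level, with a 2.50-fold gap. Racgap1, the partner of Kif23 in centralspindlin, read 8.28, 8.05 and 7.95, the narrowest spread of the 4.

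All 7 genes of chromosome structure were above the level. Mki67, which coats mitotic chromosomes and is the Ki-67 proliferation antigen, read 10.18, 10.18 and 10.10 log2. Smc2 and Smc4 are the paired ATPases of condensin, which compacts chromosomes. Smc2 read 10.10, 9.84 and 9.12, whereas Smc4 read 11.47 on every array. Equal values came from a step that is not named, so the spread of these partners cannot be compared. The 3 subunits of condensin I had means of 8.12 ± 0.62 (Ncapd2), 9.84 ± 0.20 (Ncapg) and 9.04 ± 0.62 (Ncaph).

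Top2a, the topoisomerase that untangles sister chromatids, had 2 probe sets with different levels. One read 11.43, 11.27 and 11.03 log2 and was above the level, and the other read 5.73, 5.92 and 4.80 and was on neither side (limma adjusted p = 0.0580 in the test for below). Array 3 was the lowest on both. Their mean was 8.58, 8.59 and 7.92, and 2 more probe sets annotated to Top2a together with another gene were not used.

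Other genes of the same processes, in 6 wider lists, were also above the level for the most part. Of 110 measured genes in these lists, 93 were above, 0 below and 17 on neither side, against the same background of 41.6% above. The wider kinetochore list had 22 of 29 above, among them Mis12 (8.01 ± 0.25 log2) and Dsn1 (7.38 ± 0.29), subunits of the complex that joins inner and outer kinetochore, and Zw10, Zwilch, Cenpn, Cenpo, Cenpp, Ska3 and Bod1 on neither side. The anaphase-promoting complex list had 14 of 15 above, with Anapc1 at 9.20 ± 0.57 and Anapc2 at 8.30 ± 0.45, and Cdc23 on neither side at 8.91 ± 1.01. Its 15 genes were all lower in array 3 than the mean of arrays 1 and 2.

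The mitotic entry list had 7 of 9 above, with Wee1 at 8.64 ± 0.73 and Pkmyt1 at 8.32 ± 0.12, the kinases that hold CDK1 inactive. Cdc25a and Mastl were on neither side. The list of transcription factors and cofactors of mitotic genes had 13 of 14 above. Its exception was Foxm1, a forkhead factor that drives late cell cycle genes, with 8.39, 7.94 and 6.004 log2 in arrays 1, 2 and 3 (7.45 ± 1.27). Foxm1 was thus over the level in arrays 1 and 2 and under it in array 3. Mybl2, a partner of MuvB, had a mean of 7.49 ± 0.20.

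The wider spindle and cytokinesis list had 24 of 29 above, with Ckap2 at 8.79 ± 0.58 and Ckap2l at 7.55 ± 0.00, and Kif18b, Numa1, Dlgap5, Spag5 and Haus7 on neither side. The list of cohesin and the remaining condensin genes had 13 of 14 above, with Ncapd3 on neither side at 7.49 ± 0.49 and Ncapg2 at 8.16 ± 0.36, both of condensin II. All 14 were lower in array 3 than the mean of the other arrays.

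Genes of meiosis and the germ line lay on the other side. Of 25 measured, 2 were above the level, 22 were below it and 1, Mei1, was on neither side, against backgrounds of 41.6% above and 41.6% below. Cyclin A1 (Ccna1), the germ line relative of Ccna2, had a mean of 5.59 ± 0.02 log2, and Ccnb3 one of 4.24 ± 0.50, and both were below the level. The 2 above it were Syce2, a protein of the synaptonemal complex, at 8.94 ± 0.04, and Aurkc, the germ line Aurora kinase. The 4 probe sets of Aurkc had a mean of 6.67 ± 0.09, close to the level of 6.64. A gene was called above if any of its probe sets was. TTTGAA was found in the promoter windows of 4 of 22 meiosis genes, or 18.2%, and within 50 bases of the start in 0 of 22.

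**Figure D3:**
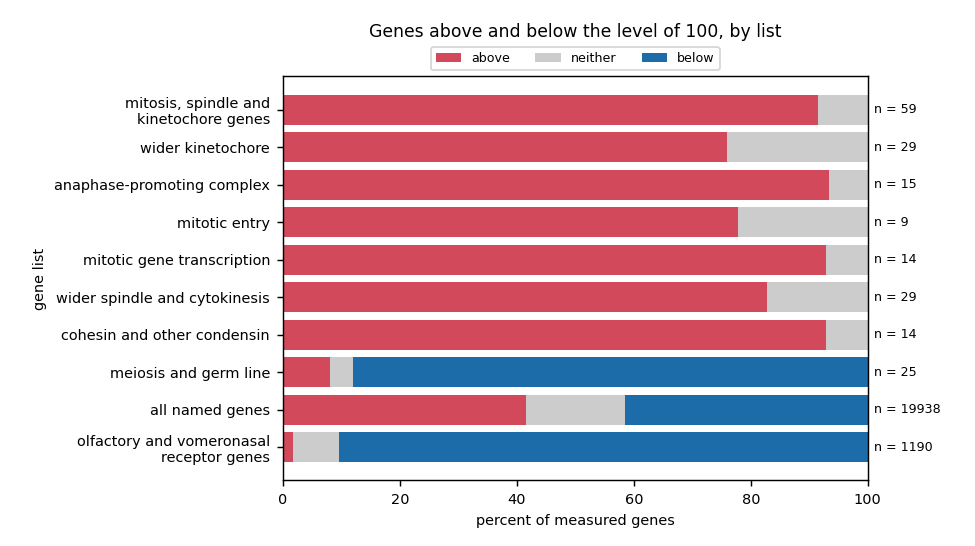
Percent of the measured genes of each list (horizontal axis) that were above the level of 100 (red), below it (blue) or on neither side (grey) in the limma test, with the number of measured genes at the right. The mitosis list and the 6 wider lists hold no gene below the level, while 22 of 25 meiosis genes are below it.

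Array 3 gave lower values for most mitosis genes. It was lower than the mean of arrays 1 and 2 for 53 of the 59. It was equal for Aspm and Smc4 and higher for Pbk, Cdc25b, Espl1 and Kif14. Of the 8295 named genes above the level, 4687 (56.5%) were lower, 2172 were equal and 1436 were higher. Kif14 was higher through its probe set below the level, while the probe set above the level was lowest in array 3. Array 3 was strictly the lowest for 48 of the 59, against 48.8% of named genes above the level. The median difference was -0.57 log2 over the mitosis genes and -0.05 over the named genes above the level. More than 1 log2 unit lay between array 3 and the others for 11 genes, against 5.42% of named genes above the level. The 11 were Cdk1, Plk1, Birc5, Trip13, Kif11, Tpx2, Prc1, Ect2, Anln, Ncapd2 and Ncaph. The shares over named genes above the level, 56.5%, 48.8% and 5.42%, and the median of -0.05 are not matched for level. These named genes passed a test in which a wide spread counts against a gene, while 5 of the 59 did not pass it. Trip13, Prc1 and Ect2 are among those 5 and among the 11. The part of this selection in the contrasts was not tested. With 1 array per pool the difference has no replicate and was not tested.

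Other genes of similar level were lower in array 3 too. For mean values of 7 to 8 log2 the median difference of array 3 was -0.03 over all named genes and -0.46 over 8 mitosis genes. For mean values of 8 to 9 log2 the median difference of array 3 was -0.34 over all named genes and -0.67 over 17 mitosis genes, and for 9 to 10 it was -0.40 and -0.68 over 22. For 10 to 11 log2 it was -0.25 and -0.29 over 9. The median gap of the mitosis genes beyond their neighbours in level was thus seen from 7 to 10 log2 and was within a few hundredths at 10 to 11. In these ranges, in order, array 3 was strictly lowest for 1858 of 4045, 1499 of 2199, 763 of 1060 and 374 of 535 named genes. The mitosis genes gave 5 of 8, 15 of 17, 20 of 22 and 7 of 9. A gap of more than 1 log2 unit was seen in 267, 351, 194 and 40 of these named genes. For the mitosis genes it was 2, 4, 3 and 2. At 8 to 10 log2 gaps of this size were about as common among named genes as among mitosis genes.

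The size of the gap also depended on how the arrays were scaled. The values of array 3 were the least spread, the SD over probe sets being 1.84 log2 against 2.08 and 2.06 for arrays 1 and 2. After quantile normalization of the 3 arrays the median difference was -0.16 over the mitosis genes and +0.08 over the named genes above the level, and 37 of 59 mitosis genes were lower, against 38.9%. The direction then turned for the medians of 2 role groups, to +0.17 for cyclins and CDK phosphatases and +0.21 for spindle proteins. The genes more than 1 log2 unit lower were then 4, Prc1 (-1.72), Ect2 (-1.60), Kif11 (-1.27) and Cdk1 (-1.11). After centring each array on its median, the mitosis genes had a median of -0.61, with 57 of 59 lower, against 85.3%. Genes without a difference before centring, Aspm and Smc4 among them, stood at -0.0414 after it and so counted as lower.

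By role, the median difference of array 3 ran from -1.52 log2 for cytokinesis and -0.90 for the passenger subunits to -0.22 for spindle proteins and -0.18 for cyclins and CDK phosphatases. Kinases had -0.74, checkpoint and anaphase control -0.69, chromosome structure -0.67, kinesin motors -0.61 and kinetochore genes -0.44. The order was led by cytokinesis under quantile normalization as well, at -1.27. Genes with TTTGAA in the promoter window had a median difference of -0.66 (n = 34, from -1.89 to +0.16), and those without it one of -0.55 (n = 16, from -1.18 to +0.13), so that the ranges overlapped widely.

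**Figure D4:**
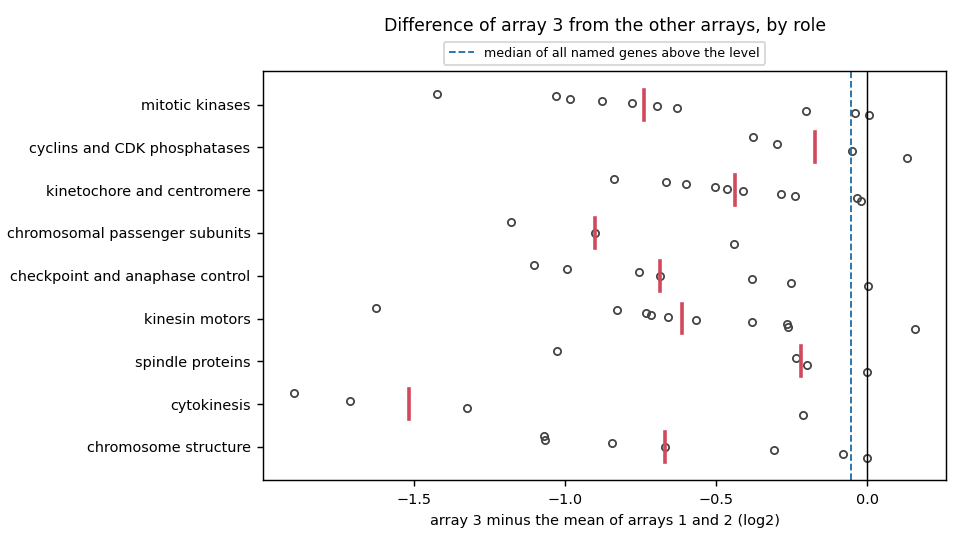
Array 3 minus the mean of arrays 1 and 2 (log2, horizontal axis) for each measured mitosis gene (circles) by role group, with the median of each group as a red bar, the median of all named genes above the level as a blue dashed line and no difference as a black line. The points reach from -1.89 (Prc1) to +0.16 (Kif14, the mean of 2 probe sets that moved in opposite directions), and the median of cytokinesis lies farthest to the left.

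Arrays 1 and 2 were closer to each other. The difference of array 1 from array 2 had a median of 0.09 log2 over the mitosis genes, with 38 higher in array 1, 15 equal and 6 lower. Array 1 was strictly the highest for 36 of the 59, against 28.1% of named genes above the level, a share not matched for level or for equal values. At 7 to 8, 8 to 9, 9 to 10 and 10 to 11 log2 this held for 956 of 4045, 906 of 2199, 484 of 1060 and 260 of 535 named genes. For the mitosis genes it held for 4 of 8, 13 of 17, 14 of 22 and 4 of 9. Equal values in at least 2 arrays were common in the table, in 69.6% of all named genes. Of the mitosis genes, 18 had the same value on 2 arrays and 2, Aspm and Smc4, on all 3. Equal values were rarer at higher levels. All values differed in 1296 of 4045 named genes at 7 to 8 log2 and 1161 of 2199 at 8 to 9. They differed in 662 of 1060 at 9 to 10 and 363 of 535 at 10 to 11. For the mitosis genes these counts were 3 of 8, 14 of 17, 16 of 22 and 4 of 9. The step that gave equal values is not named in the sources used here. An SD of 0.00, or a small SD with 2 equal values, is no measure of the error of such a gene.

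Markers of endothelial cells and of macrophages moved between the arrays as well. The 12 pan-endothelial markers had medians of 10.28, 10.16 and 8.79 log2 in arrays 1, 2 and 3, and all 12 were lower in array 3 than the mean of the others, with a median difference of -1.0001 (-0.67 after quantile normalization). Tek, whose promoter marks the sorted cells, read 11.12, 10.97 and 10.13, Pecam1 read 10.49, 10.37 and 9.40, and Cdh5 read 11.57, 11.23 and 10.43. In the level test 10 of the 12 were above and Esam and Eng were on neither side, and all 12 read at least 100 on every array.

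The 12 macrophage markers had medians of 6.54, 7.81 and 8.24 log2, and 11 of them were higher in array 3 than the mean of the others, with a median difference of +0.97 (+1.18 after quantile normalization). Adgre1 read 5.62, 6.74 and 6.42 and Csf1r read 6.45, 6.98 and 7.41, and Cx3cr1 was the 1 marker above the level, with 0 below. The mitosis genes were lower where the macrophage markers were higher and the endothelial markers lower, and the part of either in the difference of array 3 was not tested. Of the other cell types, markers above the level were 4 of 8 for erythroid cells and 3 of 6 for capping mesenchyme. They were 2 of 6 for ureteric bud, 1 of 6 for renal vesicle and 4 of 7 for renal stroma. Below it were 3, 2, 3, 2 and 2 markers of these types, in the same order. The background for all marker lists was 41.6% of named genes above and 41.6% below. These counts do not tell whether such cells were present. The median differences of these 5 types in array 3 were between 0.00 and 0.03, with single markers from -0.62 (Meox1) to +0.91 (Foxd1). In the same order, 3, 3, 2, 2 and 3 of their markers read the same on every array.

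**Figure D5:**
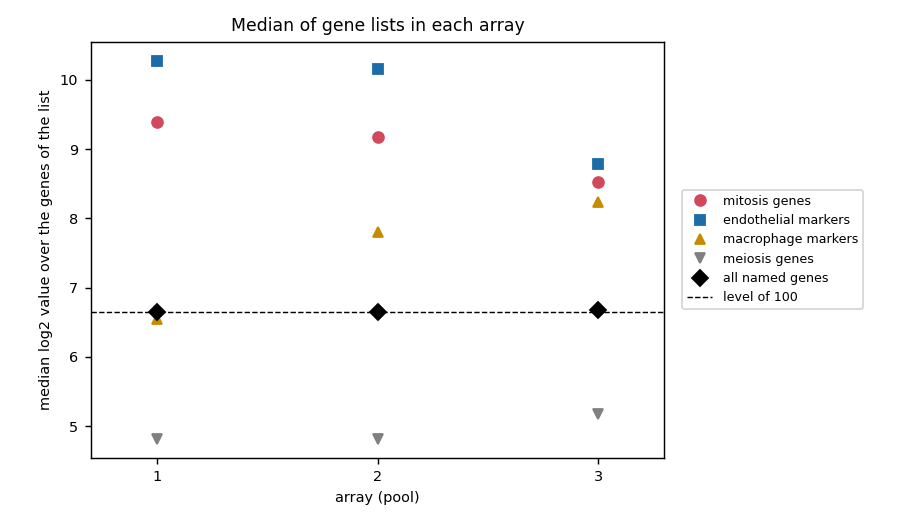
Median log2 value (vertical axis) over the mitosis genes, endothelial markers, macrophage markers, meiosis genes and all named genes in each of the 3 arrays, with the level of 100 as a dashed line. The mitosis genes stand at 9.39, 9.17 and 8.52 and the macrophage markers at 6.54, 7.81 and 8.24.

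Over all probe sets, Pearson's r was 0.976 between arrays 1 and 2, 0.923 between 1 and 3 and 0.927 between 2 and 3, and over the mitosis genes it was 0.971, 0.865 and 0.926. These are correlations across genes, which share probe affinity and are not independent replicates. Olfactory and vomeronasal receptor genes, which are silent in most tissues, had medians of 4.68, 4.71 and 5.08 log2 in arrays 1, 2 and 3, with 21 of 1190 above the level and 1076 below it.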

How the data were processed

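The deposited table holds log2 values of Mouse Gene 1.0 ST probe sets, which the authors made with Affymetrix Expression Console per the labels. The sources used here give no version or summarization method for it. The study names RMA in GeneSpring for its own analysis, without saying that this table was made so. The values were used as they stand, and the number of arrays limits what they can resolve.

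Of the 35557 probe sets, the platform annotation listed 23410, 21789 with 1 symbol and 1621 with several, which were not used, and 12147 were unnamed here. Symbols were checked by gene identifier against RefSeq GRCm38.p6 (21698 matched, 0 changed). A gene's value was the mean of its probe sets. It was above the level if any probe set was, and below only if all were. An intercept-only fit with eBayes in limma 3.58.1 (R 4.3.3) tested each probe set against 100, one-sided in each direction.

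The genes, lists and tests were chosen with earlier results of these data known. Values on each array are printed for the first 4 measured genes of each role group, genes not above the level, genes with several probe sets, and the 5 widest and 5 narrowest ranges. Of the wider lists the first 2 measured genes are named, with those whose call differed from most of their list, whatever their number. The authors' tests between sample types could not be run on 1 group. Alternatives covered the spread, the level, scaling, a filter on low values, naming, the choice of probe set and each array left out. Protein sequence was not analysed here.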

Additional observations from a re-analysis of the deposited data

How the results depend on the processing

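Calls rested on 3 arrays and were sensitive to leaving one out. In 13 mitosis genes arrays 1 and 2 alone had the same value, and in 2 all 3 arrays did. Without array 3 these genes had no spread of their own, and the part of this in the count of 41 was not tested. Arrays 2 and 3 alone had the same value in 3 genes, and arrays 1 and 3 in 2. The mitosis genes above the level, 54 with all arrays, were 24 to 41 (32 without array 1, 24 without array 2 and 41 without array 3, beside backgrounds of 27.7%, 25.3% and 40.2%), with 0 below each time. The ranges were 4 to 6 for kinases, 2 to 3 for cyclins and CDK phosphatases, 5 to 8 for kinetochore genes, 0 to 3 for passenger subunits, 3 to 4 for checkpoint and anaphase control, 3 to 7 for motors, 0 to 1 for cytokinesis and 4 to 7 for chromosome structure. For the wider lists they were 6 to 18 for the kinetochore (0 to 1 below), 4 to 13 for the anaphase-promoting complex, 7 to 11 for mitotic gene transcription, 13 to 22 for spindle and cytokinesis and 5 to 10 for cohesin and condensin, and 13 to 23 meiosis genes were below. The median deviation of the mitosis genes in array 2 from the mean of the arrays was 0.10 log2 with all arrays, and ran from -0.0465 without array 3 to 0.20 without array 1. Cenpi lay from -0.23 (without array 1) to 0.27 and Kif14 from -0.0693 to 0.0199 (without array 2) from the level.

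With a level of 200, 33 mitosis genes were above and 4, Nek2, Cdc25b, Cenpi and Espl1, below (background 16.2% and 66.6%). There were then 6 kinases, 2 cyclins and CDK phosphatases, 3 checkpoint genes, 5 motors and 0 cytokinesis genes above. In the wider lists 4 kinetochore genes were above and 6 below, 6 and 1 of the anaphase-promoting complex, 4 and 2 of mitotic gene transcription, 7 and 9 of spindle and cytokinesis, and 8 and 1 of cohesin and condensin, and 1 meiosis gene was above. The mean minus the level turned to -0.93 for Cenpi, -0.47 for Nek2, -0.56 for Cdc25b, -0.42 for Espl1 and -0.32 for Kif18a. With a level of 50, all 59 mitosis genes were above (background 71.4%), 4 of them of cytokinesis, with 7 meiosis genes above and 10 below, and Kif14 at 0.98 over the level. Kif14 was 0.22 over the 95th percentile of receptor genes, and 1.9255 over the level of 100 both by its highest probe set and where only probe sets of at least 6 log2 were tested, a filter that left 1 meiosis gene below. One spread estimated for the whole table gave 4 cytokinesis genes above, while Nek2, Cdc25b and Espl1 lost their call and 4 genes gained one, and 1 wider kinetochore gene was below with an intensity trend in eBayes and with arrays centred on their medians. The causes were not tested. Of the 59 single genes, 22, 30 and 14 lost their call without array 1, 2 or 3, and 21 with a level of 200, 3 of them, Nek2, Cdc25b and Espl1, passing from above to below.

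Under that common spread, the receptor level, quantile normalization and median centring, 55, 56, 56 and 55 mitosis genes were above, beside backgrounds of 36%, 49.2%, 41.9% and 41.8%. Over these and the trend, Cenpi was called above under none. No paired analysis was possible because the series holds 1 group.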
